A study of Mus musculus with 12 samples.

Results

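Binding of FRA-1 in peritoneal macrophages was mapped by ChIP-seq, in which DNA bound by a protein is precipitated with an antibody and sequenced. The regions described here were listed as FRA-1 peaks in the same 3 of 6 libraries. These were unstimulated replicate 3 and LPS replicates 1 and 3 (replicates are numbered by the order of their score columns in the deposited tables, which name no mouse). All peak segments of the 9 FRA-1 libraries that overlapped or touched were merged into 300608 regions, of which 179101 had a peak in at least 1 unstimulated or LPS library. Of these, 3731 were called in the 3 libraries named above and not in unstimulated replicates 1 and 2 or LPS replicate 2. They are called the members. A region counted as called when a replicate had any listed score there, so that the scores of the 6 unstimulated and LPS libraries chose the members and are given only as a description. The apoptotic cell libraries, the genomic position and the sequence took no part in the choice, except that the peaks with apoptotic cells helped to set the outer ends of the regions.

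The 3 conditions shared the cell source and the antibody target. Thioglycollate-elicited macrophages of 8-week-old mice were harvested 72 h after injection according to the sample records, whereas the study's design text speaks of a plain lavage. The records give a mixed 129/C57Bl6 background and the design text C57Bl/6. Adherent cells were left unstimulated, received LPS for 1 h (1 µg/mL in the sample records, 10 µg/mL in the design text) or received apoptotic cells for 1 h, with 3 replicates each. The records name the same 3 mice in every condition, whereas the design text counts 9 mice. Whether replicates of different conditions came from the same mouse could not be read from the score columns. The p-values over replicates concern only these libraries and do not measure the spread between them.

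FRA-1, encoded by Fosl1, belongs to the Fos family. It has no homodimer of its own and binds DNA together with a Jun protein as an activator protein-1 (AP-1) dimer. In macrophages, AP-1 acts beside NF-κB in the response to LPS, and much of its binding lies in enhancers away from gene starts. The best known AP-1 recognition motif is TGANTCA, in which N is usually C or G.

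Gene starts under the members were looked at first, since promoter windows were the only sequences at hand. A window ran from 250 bases before to 50 bases after a RefSeq start (GRCm38.p6), and 14 windows overlapped a member. The following 6 sequences are the stretches of a member that lie in the window before the start of a gene. They are written 5′ to 3′ on the gene's strand, and any part of a member outside the window was not read. Capitals mark runs of at least 15 A or T. The first 4 are shown because each holds such a run, and the last 2 because they hold none.
Spata16, chr3:26637574-26637630, plus strand: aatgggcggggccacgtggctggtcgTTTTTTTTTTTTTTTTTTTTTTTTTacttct
Rrp8, chr7:105737387-105737506, minus strand: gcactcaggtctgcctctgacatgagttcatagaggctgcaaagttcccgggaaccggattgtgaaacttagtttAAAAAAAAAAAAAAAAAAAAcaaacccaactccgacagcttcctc
Gm35939, chr16:90524861-90524969, plus strand: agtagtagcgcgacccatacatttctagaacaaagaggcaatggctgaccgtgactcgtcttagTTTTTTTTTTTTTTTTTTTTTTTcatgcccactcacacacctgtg
Fam186b, chr15:99287359-99287430, minus strand: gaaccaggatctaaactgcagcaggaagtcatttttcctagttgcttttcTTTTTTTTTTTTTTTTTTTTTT
Pard3bos1, chr1:61865396-61865470, minus strand: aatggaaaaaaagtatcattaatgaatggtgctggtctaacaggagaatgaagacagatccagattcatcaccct
Pgam1, chr19:41911621-41911700, plus strand: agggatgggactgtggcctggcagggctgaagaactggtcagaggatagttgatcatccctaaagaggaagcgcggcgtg

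Of the 14 windows, 8 held a run of at least 15 A or T, or 57.1% (95% Wilson interval 32.6 to 78.6%). Among all 32817 promoter windows the share was 1.80%. It was 20.2% (182 of 901) for windows under other regions with an unstimulated or LPS peak. Under other regions called in exactly 3 of the 6 libraries 5 of 9 windows held a run, or 55.6% (26.7 to 81.1%), so the runs were not particular to the members. The 8 windows belong to Gm38650, A930009A15Rik, Arhgef10l, Gm35939, Rrp8, Spata16, Fam186b and Vmn2r106, and each longest run lay inside the member. Their longest runs were 15 to 26 bases long and lay 26 to 79 bp from the middle of the peaks. The look at A and T runs was chosen after these sequences had been read. TGANTCA, which reads the same on both strands, was present in 1 of the 14 windows (Arhgef10l, of which 18 bases lay in the member), against 7.81% of all windows. Among protein-coding genes alone it was present in 1 of 11 windows, against 6.99% of 21263 windows.

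The same share was then taken for every library, over all promoter windows under its peaks. LPS replicate 3 had 178 of 326 windows with a run (54.6%, 95% Wilson interval 49.2 to 59.9%). LPS replicate 1 had 59 of 247 (23.9%) and unstimulated replicate 3 had 26 of 131 (19.8%). Unstimulated replicates 1 and 2 had 3.39% and 7.37%, and LPS replicate 2 had 7.41%. The 3 libraries that define the members thus had the 3 highest shares of the 6, although the Wilson intervals of unstimulated replicates 3 (13.9 to 27.5%) and 2 (3.61 to 14.4%) overlapped. Without the members themselves, the shares of unstimulated replicate 3, LPS replicate 1 and LPS replicate 3 were 15.4%, 21.9% and 54.5%. The interval of unstimulated replicate 3 was then 9.96 to 23.0%. It overlapped those of unstimulated replicate 2 and LPS replicate 2 (4.61 to 11.7%). The apoptotic cell libraries had 12.9%, 9.09% and 7.65%. Every library lay above the 1.80% of all windows, which was within the Wilson interval of unstimulated replicate 1 (1.33 to 8.39%). Since these 3 libraries were grouped by the data and not by the labels, the difference was not tested. Whether the runs played a part in the calls elsewhere in the genome was not tested, as only promoter windows were read.

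**Figure D1:**
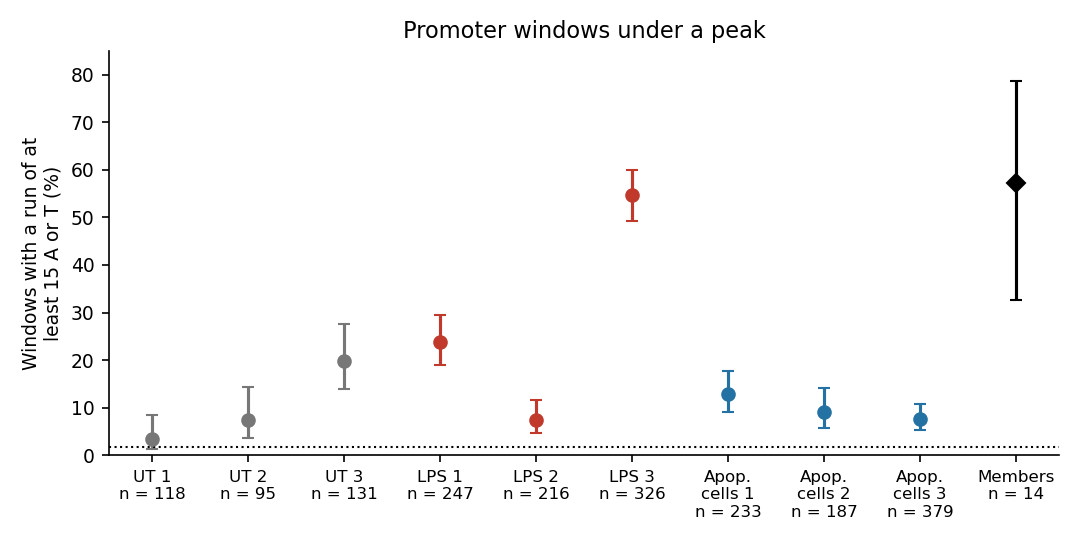
Share of promoter windows (300 bases around a gene start) that hold a run of at least 15 A or T, in percent, among the windows under a peak of each library and under a member. Bars are 95% Wilson intervals, n is the number of windows and the dotted line is the share over all windows (1.80%). LPS replicate 3 stands highest of the 9 libraries at 54.6%, followed by LPS replicate 1 at 23.9% and unstimulated replicate 3 at 19.8%.

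In the 3 libraries that define them, the members had scores from low to high. The deposited score is a Phred-scaled p-value, higher for a smaller p, with values from 50 upwards and no normalization between replicates. The scores of the members ran from 50.32 to 368.26 in unstimulated replicate 3, with a median of 150.97. In LPS replicate 1 they ran from 52.85 to 509.14 (median 200.47) and in LPS replicate 3 from 63.66 to 736.81 (median 304.61). The median member stood at the 58.4th percentile of all regions of unstimulated replicate 3, at the 79.6th of LPS replicate 1 and at the 83.3rd of LPS replicate 3. The 1372 regions called in all 9 libraries had medians at the 96.4th, 97.1st and 93.9th percentile of these libraries. Many members shared the same score. In unstimulated replicate 3, 970 members (26.0%) had exactly 150.97, a score found in 14.1% of all its regions.

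**Figure D2:**
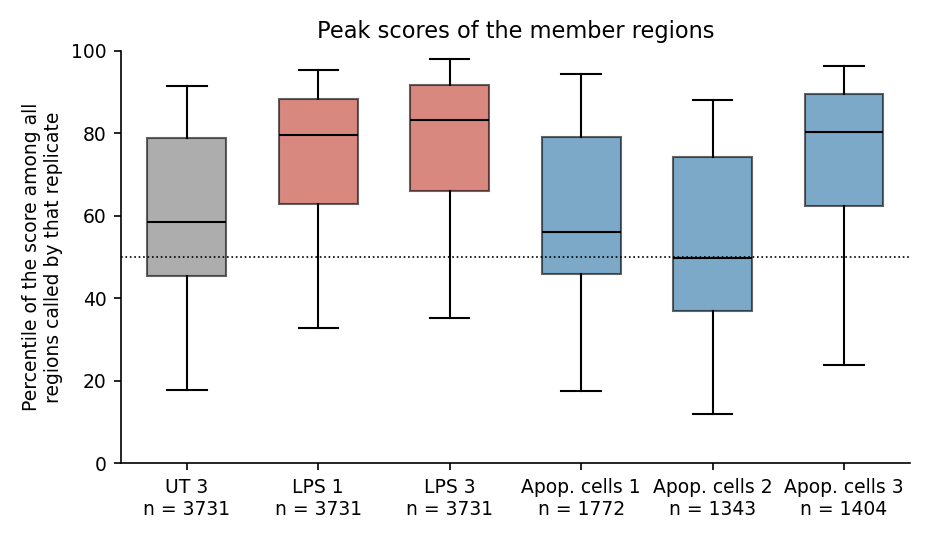
Percentile of each member's peak score among all regions called by the same replicate, for the 3 defining libraries and for the members called by each apoptotic cell library. Boxes span the quartiles with the median as a line, whiskers the 5th to 95th percentile, and the dotted line marks the 50th percentile. Medians lie between the 49.8th (apoptotic cell replicate 2) and the 83.3rd percentile (LPS replicate 3).

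The rule has no score limit beyond being listed. Just outside it stood 11283 regions that lacked only the peak of unstimulated replicate 3, 1031 that lacked only that of LPS replicate 1 and 92 that lacked only that of LPS replicate 3. A further 451, 550 and 1086 regions had the 3 peaks of the members and in addition a peak in unstimulated replicate 1, unstimulated replicate 2 or LPS replicate 2. Altogether 8581 regions were called by the 3 defining libraries, of which the members made up 43.5%. The opposite pattern, with a peak in unstimulated replicates 1 and 2 and LPS replicate 2 and in none of the defining libraries, was found in 2 regions.

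The smallest peaks of the 3 defining libraries were 116, 108 and 104 bp wide. Apoptotic cell replicate 3 also had a smallest peak of 104 bp, whereas those of the remaining 5 libraries were 158 to 172 bp wide. According to the sample records the reads were 100 bases long. At the members, 83.1% of the peaks of unstimulated replicate 3 were within 10 bp of that library's smallest peak, against 34.1% at the other regions. For LPS replicate 1 the shares were 81.9% and 44.4%, and for LPS replicate 3 they were 49.1% and 56.2%. The shares of the LPS replicates were not particular to the members. Other regions called in exactly 3 of the 6 libraries had 78.9% in LPS replicate 1 and 48.4% in LPS replicate 3. In unstimulated replicate 3 the share was higher at the members. There the other regions called in exactly 3 of the 6 libraries had 53.8% (n = 106), and the regions called in all 9 libraries had 64.7%. The merged members were 116 to 829 bp wide, with a median of 172 bp. In unstimulated replicate 3 and LPS replicate 1, most peaks at the members were thus close to the least width that the library lists.

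Macrophages given apoptotic cells had a peak at many of the members. Apoptotic cell replicate 1 called 1772 members (47.5%, 95% Wilson interval 45.9 to 49.1%), replicate 2 called 1343 (36.0%, 34.5 to 37.5%) and replicate 3 called 1404 (37.6%, 36.1 to 39.2%). The mean was 40.4% ± 6.22 (SD, n = 3 replicates). Over all regions with an unstimulated or LPS peak the same 3 libraries called 5.95%, 4.70% and 5.77%. The members were called more often than the other such regions in 3 of 3 libraries, by 35.6 ± 5.88 percentage points (SD). The exact sign-flip permutation test over 3 replicates gave p = 0.25 (two-sided), which is the smallest p that it allows. The Wilson intervals cover counting error only, and the depth of the libraries is unknown.

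Most of the other regions were called in few libraries, so the comparison was also made with 1342 regions called in exactly 3 of the 6 unstimulated and LPS libraries in another pattern. The apoptotic cell libraries called 41.7%, 30.9% and 34.4% of these, or 35.7% ± 5.52 on average (SD, n = 3). The members lay above them in 3 of 3 libraries, by 3.28 to 5.77 percentage points (4.71 ± 1.28 on average, SD, n = 3). The exact sign-flip permutation test, a comparison chosen after seeing the data, gave p = 0.25 (two-sided), again the smallest that it allows. Among these 1342, 628 regions had all 3 LPS peaks and 0 unstimulated ones. They were called in 44.9%, 33.4% and 38.4%, with Wilson intervals that overlapped those of the members in all 3 libraries. Apoptotic cell replicate 3 shares the narrow smallest peak of the defining libraries and listed the most regions of all 9 libraries (79424). Apoptotic cell replicates 1 and 2 listed 40815 and 31492 regions. With the same number of top-scoring regions taken from each of the 3, the mean share of members called was 36.8% ± 6.69 (SD, n = 3). The part of peak width in the shares was not tested.

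**Figure D3:**
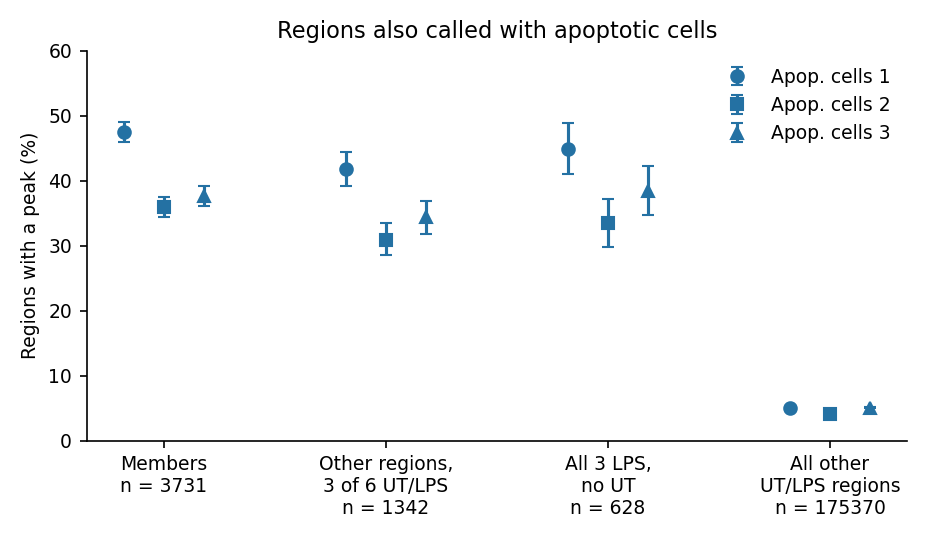
Percentage of regions with a peak in each of the 3 apoptotic cell replicates, for the members and 3 sets of other regions, with 95% Wilson intervals (counting error only). The members lie between 36.0% and 47.5%, and all other regions with an unstimulated or LPS peak between 4.03% and 5.10%.

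The calls with apoptotic cells were spread over the members. A peak in all 3 apoptotic cell libraries was listed at 542 members (14.5%, against 2.34% of all regions with an unstimulated or LPS peak), and in at least 2 at 1430 (38.3%, against 4.17%). At 2547 members (68.3%, against 9.90%) at least 1 library had a peak. The remaining 1184 members (31.7%) had none, so that among all 9 libraries they were listed in the defining 3 alone. Replicate 1 alone called 535, replicate 2 alone 253 and replicate 3 alone 329 members. Such sole calls were not counted over all regions with an unstimulated or LPS peak. Of those regions the 3 libraries called 5.95%, 4.70% and 5.77%, sole or not.

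Members with higher scores in the defining libraries were called more often with apoptotic cells. Each member was ranked by the lowest of its 3 percentiles, and the members were split into 5 groups of 746 or 747. Apoptotic cell replicate 1 called 29.9% of the lowest and 66.0% of the highest group. Replicate 2 called 22.8% and 52.1%, and replicate 3 called 24.9% and 54.3%. The rise was not even, since group 3 had lower shares than group 2 in replicate 2 (30.3% and 32.6%) and in replicate 3 (31.2% and 33.5%). The median score in LPS replicate 1 was 167.63 at members without an apoptotic cell call and 267.73 at members called in all 3. In LPS replicate 3 these medians were 265.27 and 342.41, and in unstimulated replicate 3 they were 150.97 and 196.4.

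**Figure D4:**
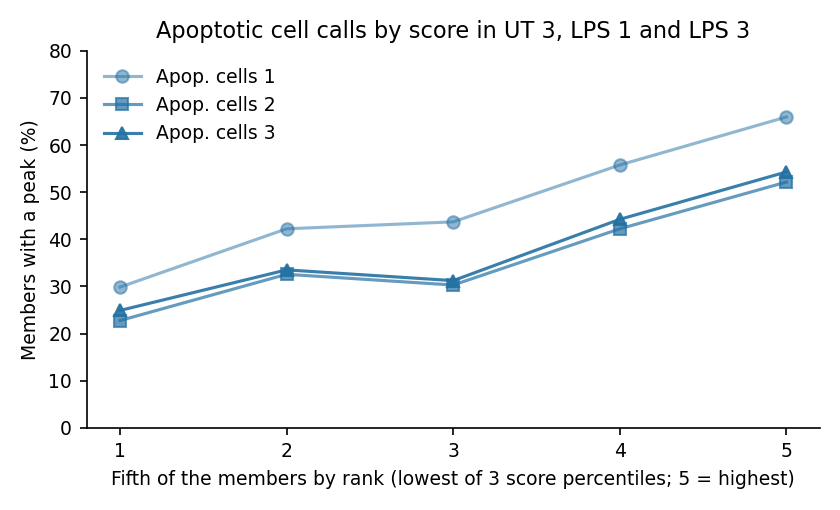
Percentage of members with a peak in each apoptotic cell replicate, for 5 groups of members of equal size, ordered by the lowest of their score percentiles in the 3 defining libraries. All 3 lines end higher than they begin, from 22.8 to 29.9% in the lowest to 52.1 to 66.0% in the highest group.

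The regions just outside the rule were called at other shares. Where unstimulated replicate 3 had no peak, the apoptotic cell libraries called 14.8% ± 3.02 of the 11283 regions (SD, n = 3). Where LPS replicate 1 had no peak, they called 8.54% ± 2.24 of 1031, and where LPS replicate 3 had none, 5.43% ± 2.17 of 92. Where in addition LPS replicate 2 had a peak, they called 69.4% ± 6.32 of 1086, and where unstimulated replicate 1 or 2 had one, 64.7% ± 5.09 and 63.8% ± 8.21. The members, with 40.4%, stood between these classes.

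Peaks of the different libraries had close centres at the members. The outermost centres of the 3 defining peaks were 5.5 bp apart in the median, and at most 100 bp apart at 97.2% of the members. These peaks were 113 to 120 bp wide in the median and had to fall in 1 merged region. Centres at most 100 bp apart thus follow largely from the rule, and the distances were not set against those at other regions. Apoptotic cell peaks were centred 28.5 bp (replicate 1), 25 bp (replicate 2) and 3.5 bp (replicate 3) from the median defining centre. In replicates 1 and 2, whose smallest peaks are wider, few centres coincided and the offsets formed 2 groups, to the left and to the right. Compared with the peak of LPS replicate 1, 85.1% of the peaks of apoptotic cell replicate 1 shared exactly 1 edge within 5 bp. The start was shared in 41.2% and the end in 43.9%. In apoptotic cell replicate 2, 80.8% shared exactly 1 edge. In replicate 3, 45.3% shared both edges and 41.9% only 1. This was not particular to the members. At the regions called in all 9 libraries, exactly 1 edge was shared in 79.7% and 79.5% of the peaks of apoptotic cell replicates 1 and 2.

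**Figure D5:**
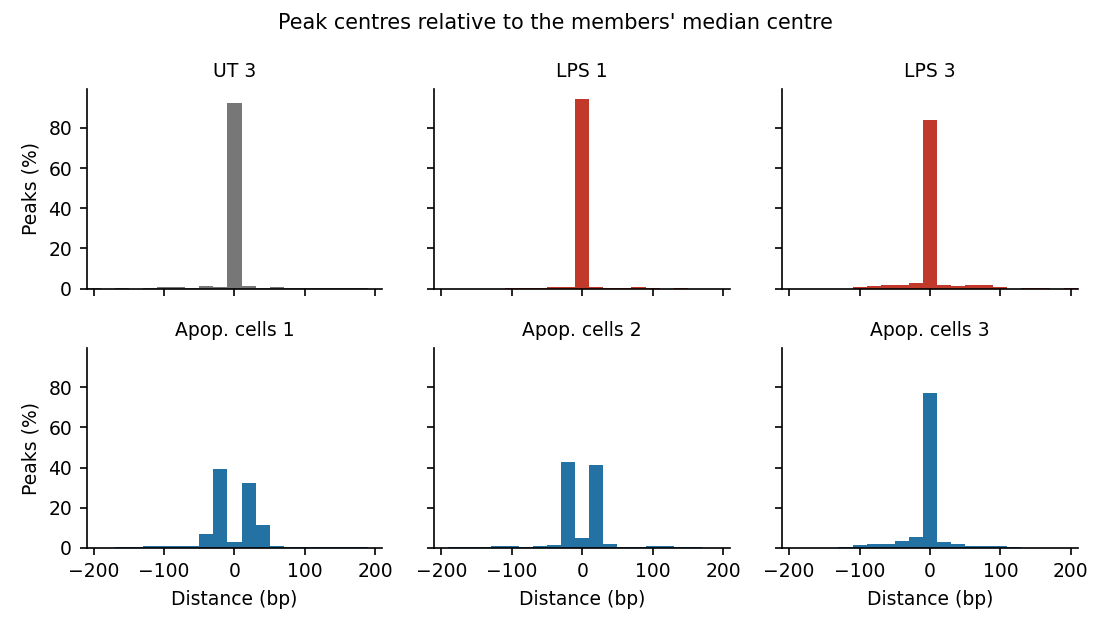
Distance in bp from the median centre of the 3 defining peaks to the peak centre of each library at the members, in bins of 20 bp, as a percentage of the peaks drawn. The 3 defining libraries and apoptotic cell replicate 3 peak at 0, and apoptotic cell replicates 1 and 2 show a group on either side with median distances of 28.5 and 25 bp.

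The members lay mostly away from gene starts. Of 3724 members on the main chromosomes, 1579 (42.4%, 95% Wilson interval 40.8 to 44.0%) lay inside a protein-coding gene, against 41.7% of all regions with an unstimulated or LPS peak. At most 10000 bp from such a gene lay 55.1% of the members (53.5 to 56.7%) and 52.4% of all those regions. The median distance to the nearest protein-coding start was 67304 bp for the members and 75700 bp for all. Within 1000 bp of a start lay 79 members (2.12%, 1.71 to 2.64%), compared with 1.63%. The annotation used gives gene spans only, so exons and introns were not told apart. By chromosome, members made up from 1.61% (chromosome 8) to 3.05% (chromosome Y) of the regions with an unstimulated or LPS peak. On chromosome X the share was 2.67%, with 231 members.

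Near genes, the members were scattered. A member lay inside or at most 10000 bp from 2146 of 21887 protein-coding genes (9.80%), and inside 1363 (6.23%). Most of these genes, 1858, had a single member, and 288 had more. Among the genes with the most members were very long ones. Lrp1b, an LDL receptor relative, had 6 among 161 regions with an unstimulated or LPS peak. Il1rapl1 and Dlg2 had 5 each. Lrp1b, Il1rapl1 and Dlg2 were 1375012 to 2058309 bp long, while the median protein-coding gene had 17169 bp and the median gene with a member inside 90649 bp. A further 8 genes had 4 members, of which the 6 with the fewest regions with an unstimulated or LPS peak are named here. These are Nploc4, Snrpn, Car10, Rabgap1l, Etl4 and Trpm3. Nploc4, a cofactor of the p97 segregase, is a gene of 57903 bp with 3 members inside. Its 4 members and 13 such regions were counted inside the gene or at most 10000 bp away.

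The members with the highest rank in the defining libraries were mostly far from starts. The highest lay at chr9:108277031-108277218, 13054 bp from Dag1, which encodes dystroglycan. Its scores were 335.84 in unstimulated replicate 3, 448.76 in LPS replicate 1 and 427.54 in LPS replicate 3, and 169.54, 191.04 and 154.93 in the apoptotic cell libraries. All 3 apoptotic cell libraries thus listed it. Their lower scores are not read as weaker binding. The member was picked by its rank in the defining libraries, and scores are not normalized between replicates. The next were nearest to Cetn3, Myh10, Zpld1, Mettl8, Ovol2, Pramel1, Pcid2, Utp23 and Rpia. Of these 10 members, 3 lay inside their gene (Mettl8, Ovol2 and Pcid2). The member at Pramel1 lay 572 bp from the gene. All 10 were called in at least 2 apoptotic cell libraries, as were 38.3% of all members.

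Among the members called in all 3 apoptotic cell libraries, the highest rank there was found at chr11:107517208-107517525, 19172 bp from Psmd12, a subunit of the proteasome lid. Its scores with apoptotic cells were 277.37, 285.38 and 263.07. In the defining libraries it had 167.81 (unstimulated replicate 3), 314.12 (LPS replicate 1) and 491.59 (LPS replicate 3). It was followed by members nearest to Atl1, Limd1, Nmbr, Cdh12, St8sia5, Ptgfrn, Plpp3, Ing2 and Fnip1. Of these 10, the members at Atl1, Ptgfrn, Plpp3 and Fnip1 lay inside the gene. Fnip1 encodes a partner of folliculin, and Limd1 a LIM domain adaptor protein.

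Within the promoter windows of protein-coding genes, 11 members were found (0.295%, against 0.294% of all regions with an unstimulated or LPS peak). They lay at Olfr568, Naa11, A930009A15Rik, Spata16, Arhgef10l, Rrp8, Sfxn1, Pgam1, Fam186b, Yipf4 and Vmn2r106. Rrp8 encodes a nucleolar protein of rRNA processing, Sfxn1 a mitochondrial serine transporter and Pgam1 a glycolytic enzyme. The member at Rrp8, whose sequence is shown above, had scores of 150.97, 244.98 and 406.68 in the defining libraries, and 0 apoptotic cell libraries listed it. The member at Spata16 had 150.97, 267.73 and 245.97 and was not listed with apoptotic cells either. The member at Pgam1 is 453 bp wide, and the 80 bases of it that were read held no A or T run. It had 150.73, 200.14 and 240.0, and was listed by apoptotic cell replicates 1 (253.09) and 2 (93.52). Olfr568 and Vmn2r106 belong to the large olfactory and vomeronasal receptor families, in which reads of similar copies may not be placed with certainty.

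Genes of the macrophage response were looked up in 14 lists. Of 232 genes found in the annotation (Cxcl11 was not found), 21 (9.05%) had a member inside or at most 10000 bp away, close to the 9.80% of all protein-coding genes. The lists are therefore given as a description of which genes had a member.

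Of the 14 AP-1 and related factors, only Junb had a member within 10000 bp. JUNB is a dimer partner of FRA-1. The member lay at chr8:84983274-84983444, with its centre 4611 bp upstream of the start. Its scores were 196.7 in unstimulated replicate 3, 314.12 in LPS replicate 1 and 448.8 in LPS replicate 3. With apoptotic cells they were 211.84, 175.18 and 242.95. This member was thus listed in 6 of 9 libraries across all 3 conditions.

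Among the inflammatory mediators, 0 of 17 LPS-response cytokine genes and 4 of 19 chemokine genes had a member. Inside Cxcl10, which encodes an interferon-induced ligand of CXCR3, a member lay at chr5:92347475-92347637, centred 1333 bp downstream of the start. It was called in the defining libraries with 150.97, 222.56 and 208.17, and in apoptotic cell replicate 2 with 133.78. The member inside Ccl2, the monocyte chemoattractant, lay at chr11:82036129-82036451 with scores of 142.05, 167.63 and 133.89 and no peak with apoptotic cells. It also lay 9261 bp from Ccl7, so these 2 genes share 1 region. The member 678 bp from Ccl5 had scores of 107.08, 131.11 and 392.19, and 129.52 in apoptotic cell replicate 1. None of the 3 chemokine regions ranked above the 58.4th percentile in unstimulated replicate 3, which was the median of all members. At most 1 apoptotic cell library listed each of them. Of all members, 38.3% were listed by at least 2, and the difference was not tested.

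In the signalling lists, 1 of 15 NF-κB genes, 2 of 20 LPS receptor and TLR signalling genes and 0 of 11 MAP kinase phosphatase genes had a member. Nfkb1, which encodes the p105 precursor of p50, held a member at chr3:135586186-135586310 with 145.56, 277.38 and 382.64, not listed with apoptotic cells. Traf6, the ubiquitin ligase downstream of MyD88, held a member centred 14192 bp downstream of its start with 244.1, 290.79 and 513.21. Apoptotic cell replicate 2 listed it with 133.53. Traf3, an adaptor of the interferon branch, held a member with 103.06, 192.27 and 265.27 that was listed by apoptotic cell replicates 2 (175.18) and 3 (111.27).

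Of the genes linked to apoptotic cell uptake, 3 of 22 receptors and bridging molecules had a member. Itgb5, a subunit of the αvβ5 integrin, had 2. The 1 inside the gene had scores of 150.97, 222.56 and 304.61 and was called by apoptotic cell replicate 3 (184.35). The other lay 4403 bp from the gene, with 142.05, 318.72 and 522.34, and was called by apoptotic cell replicate 1 (56.53). Mertk, a receptor tyrosine kinase for phosphatidylserine-bridging ligands, held a member with 138.42, 124.13 and 120.9 that only apoptotic cell replicate 2 listed (85.08). Lrp1, an endocytic receptor, held a member with 244.1, 222.56 and 151.66 and no apoptotic cell call. None of these 4 regions was called in more than 1 of the 3 apoptotic cell libraries. Of all members, 38.3% were called in at least 2, and with so few regions the difference was not tested.

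Of the actin remodelling genes, 3 of 23 had a member. Dock1, a Rac activator in engulfment and a long gene of 502961 bp, held 2, both called in all 3 apoptotic cell libraries. Of all members, 14.5% were called in all 3, and with 2 regions the difference was not tested. The member at chr7:134800488-134800831 had 101.96, 209.12 and 226.94 in the defining libraries. The member at chr7:135109493-135109676 had 190.63, 193.8 and 199.74 in the defining libraries and 211.47, 174.87 and 123.49 with apoptotic cells. Actr2, a subunit of the Arp2/3 complex, had 3 members, of which only that at chr11:20087041-20087204 was listed with apoptotic cells (128.94, replicate 2). The member 7919 bp from Rhoa, a small GTPase of the cytoskeleton, had 292.88, 290.79 and 365.26, with 169.85 in apoptotic cell replicate 1.

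In the remaining lists, 2 of 20 macrophage lineage genes, 1 of 17 lipid handling genes, 2 of 19 matrix protease and urokinase genes and 0 of 10 arginine metabolism genes had a member. The member 6230 bp from Csf1r, the M-CSF receptor that marks macrophages, had 196.7, 222.56 and 344.84, and 255.22, 121.95 and 146.98 with apoptotic cells. Zeb2 held a member called in 2 apoptotic cell libraries, and Soat1, which esterifies cholesterol, held 1 called in none. The member inside Plaur, the urokinase receptor, had 196.7, 136.64 and 365.26, and 129.52, 93.23 and 184.35 with apoptotic cells. That 8663 bp from Mmp14, a membrane-bound matrix protease, was also called in all 3 apoptotic cell libraries (169.54, 217.87 and 183.98).

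Of 23 marker genes of other peritoneal cells, 2 had a member (8.70%, close to the 9.80% of all protein-coding genes). Both are mast cell genes, but Cpa3 and Fcer1a of the same list had no member within 10000 bp. Kit held a member with 220.21, 222.56 and 470.12 that was called in all 3 apoptotic cell libraries, and the member 3549 bp from Mcpt4 had 243.73, 172.71 and 273.95. ChIP-seq peaks do not give the share of such cells. The last list held the qPCR genes Il6, Il12b, Mmp13, Saa3 and Lcn2. None of the 5 genes of the last list had a member within 50000 bp, where 20.6% of all protein-coding genes had one. With so few genes the difference was not tested. All 5 had some region with an unstimulated or LPS peak inside or at most 10000 bp away. The nearest member was 114925 bp from Saa3 and 442912 bp from Lcn2.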

How the data were processed

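FRA-1 ChIP-seq libraries of unstimulated, LPS-stimulated and apoptotic cell-treated peritoneal macrophages were analysed, 3 per condition. Pooled input DNA (3 samples) was left out. The authors deposited 1 peak table per condition, in which each score column is a Phred-scaled p-value per replicate (−1 without a peak). The submitters' processing notes name BWA 0.7.14, bedtools, and mm10 or GRCm38. The peak caller is not given in the sources used here. Further deposited columns hold the number of replicates and the sum of scores. The tables carry no read counts, so depth is unknown.

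Repeated rows were dropped. Adjoining segments with equal scores were rejoined into peaks, and segments that overlapped or touched were merged into regions. Percentiles use mid-ranks over the regions called by a replicate. Gene spans, starts and promoter sequences came from RefSeq for GRCm38.p6. The nearest gene was the shortest among overlapping genes. Named were the nearest genes of the 10 members of highest rank in the defining or in the apoptotic cell libraries. Named too were the 10 genes with most members (ties by fewest regions). The 10 genes of highest rank with a member in the promoter window were also named. So were up to 4 genes per list and the qPCR genes of the last list. One gene that this rule names is not reported here. Vmn2r106 and the non-coding genes with such a window were named after their values were seen.

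The members, lists and tests were chosen with earlier results of these data known. The merging was tested on simulated data. Alternatives were other scores, merging rules, distances and leaving out replicates. Shares have 95% Wilson intervals. Calculations ran in Python 3.11.15 with pandas 2.3.3 and numpy 2.4.6, tests in scipy 1.17.1, and plots in matplotlib 3.10.9.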

Additional observations from a re-analysis of the deposited data

How the results depend on the processing

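The number of members stayed within 1.5 times of 3731 with stricter scores and other merging. Leaving out each unstimulated or LPS replicate gave 3823 to 15014, highest without unstimulated replicate 3 and lowest without LPS replicate 3. Apoptotic cell peaks also widen a region. For members no wider than the median, the share called with apoptotic cells was 26.8%, and the part of width in this was not tested. Without each apoptotic cell replicate it ranged from 36.8% to 42.6%, and for members defined without 1 replicate, an alternative chosen after seeing the data, it was 21.2% without unstimulated replicate 3, 33.5% without LPS replicate 1 and 46.9% without LPS replicate 2. The mean of the median percentiles with apoptotic cells, 62.1, ranged from 53.0 to 68.2.

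By construction, the shares near genes moved with the distance. Within 5000 and 50000 bp of a protein-coding gene lay 50.6% and 67.9% of the members. Among all regions with an unstimulated or LPS peak these shares were 48.3% and 66.5%. Within 10000 bp of any gene lay 68.2% of the members and 66.5% of all those regions. A narrower and a wider area around starts held 0.295% and 9.77% of the members, against 0.294% and 7.86%. Within 50000 bp, 46 of the 232 genes of the lists had a member, as did 20.6% of all protein-coding genes. By the authors' deposited gene assignment 2 of the 232 had one, as did 1.08% of all protein-coding genes. The share of promoter windows with a run of A or T ranged from 50% to 63.6% with other run lengths, overlaps, genes or defining libraries, all chosen after seeing the data. The unknown depth and the small number of windows limit these values. No paired analysis was possible because none of the replicate columns names its mouse.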
